A study of Mus musculus with 8 samples.

Results

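The AP-1 and EGR immediate early factors were measured in 3T3-L1 preadipocytes, a mouse fibroblast line that can become adipocytes, after siRNA against Fto, which encodes a dioxygenase that removes methyl groups from RNA. The 10 genes were taken by symbol from 23699 listed genes: the Jun family (Jun, Junb, Jund), the Fos family (Fos, Fosb, Fosl1, Fosl2) and 3 EGR factors (Egr1, Egr2, Egr3). RNA came from 4 libraries with control siRNA and 4 with Fto siRNA. Both groups were the same cell line from a commercial cell bank, grown in newborn calf serum, transfected with a mix of 3 siRNAs at 40 nM for 24 hours before confluence, and collected 2 days past confluence. The control was a mix of 3 nontargeting siRNAs, and the labels name no adipogenic inducer. The labels do not say whether the libraries are separate cultures, so p-values cover only the spread between these samples, which may be technical.

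AP-1 is a dimer of basic leucine zipper proteins. Jun proteins pair with each other or with Fos proteins, whereas Fos proteins need a Jun partner to bind DNA. EGR factors are zinc finger proteins that bind GC-rich promoter sites. Serum, growth factors and stress switch many of these genes on within minutes through MAP kinases, serum response factor and its partners, without new protein synthesis, and the Fos and Egr transcripts then decay quickly. In 3T3-L1 cells they are best known for a short burst after the adipogenic cocktail is added. The labels name no such cocktail for these confluent cells, and whether the cells were resting was not measured.

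In these confluent cells Jun was higher with Fto siRNA, Fosl2 was lower, and the other 8 factors did not pass the test. All 10 genes passed the filter of a mean of at least 1 FPKM (fragments per kilobase of transcript, scaled to the mapped fragments of the library). A gene was called where limma's adjusted p was under 0.05. Of the 10 genes 1 rose and 1 fell, and 19.3% of all 11398 tested genes were called (6.97% rose and 12.3% fell), so the number of called factors was near that of genes in general. The median log2 fold change of the 10 was -0.06, beside -0.02 over all tested genes. Fold changes are on the log2(FPKM + 0.5) scale, on which changes of scarce transcripts such as Fos come out too small.

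The promoter sequences of the called pair are shown because they carry sites for the factors themselves. They run from 250 bases before to 50 bases after the start site and come from RefSeq on GRCm38.p6, used for sequence only, since the deposited loci are in mm9. Of the 10 genes 7 had an entry. Fosl1, Egr1 and Egr3 had none. Capitals mark TGACATCA, the AP-1 element through which Jun is known to act on its own gene, in the Jun sequence, and GCGGGGGCG, a match to the EGR site GCGNGGGCG, in the Fosl2 sequence.
Jun, chr4:95052173-95052472, minus strand: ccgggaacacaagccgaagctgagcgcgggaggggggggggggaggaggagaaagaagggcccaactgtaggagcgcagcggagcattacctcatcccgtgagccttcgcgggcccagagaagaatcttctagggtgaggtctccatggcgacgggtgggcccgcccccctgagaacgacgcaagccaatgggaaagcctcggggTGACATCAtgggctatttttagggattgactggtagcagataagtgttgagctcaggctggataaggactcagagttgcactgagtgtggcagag
Fosl2, chr5:32136222-32136521, plus strand: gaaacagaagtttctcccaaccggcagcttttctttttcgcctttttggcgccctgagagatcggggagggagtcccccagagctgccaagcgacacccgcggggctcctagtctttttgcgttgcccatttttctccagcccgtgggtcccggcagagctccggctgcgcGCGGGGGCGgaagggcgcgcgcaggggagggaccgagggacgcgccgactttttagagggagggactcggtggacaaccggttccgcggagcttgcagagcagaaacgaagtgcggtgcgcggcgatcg

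Both strands of 32851 promoter entries were searched, overlaps included. TGACATCA was in 3.62% of entries and, among those of the 10 genes, in 1, that of Jun, where it began 45 bases before the start site. GCGNGGGCG was in 5.55% of entries and in those of Fosl2 and Fosb. The CArG box of serum response factor was in 1.63% of entries and in 4 of the 5 entries of Egr2, which overlap in part. The matches were CCTTTTTTGG and CCATATATGG, and overlapping entries share the latter site. Egr1 had no entry, and boxes more than 250 bases before a start site lay outside the search, for Fos as well. TGANTCA and the cAMP response element TGACGTCA, in 7.81% and 1.79% of entries, were in none of the entries of the 10 genes. A match describes letters, and no binding was measured.

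Jun, the most abundant Jun family transcript, was higher in every Fto siRNA library than in every control. Its mm9 locus is chromosome 4, 94715727 to 94718913. Controls 1 to 4 held 29.1, 27.1, 29.7 and 28.9 FPKM, and Fto siRNA libraries 1 to 4 held 37.4, 34.9, 37.6 and 38.1 FPKM. The groups did not overlap, as they did not for 24.2% of tested genes (9.08% higher and 15.1% lower with Fto siRNA), and the lowest Fto siRNA library lay well above the highest control. The mean went from 28.7 ± 1.09 to 37.0 ± 1.43 FPKM (SD, n = 4), a rise of 29.0%. On the log2 scale it was 0.36 (SE 0.04, 95% interval 0.27 to 0.45, limma adjusted p = 0.00036). Exact permutation of the libraries, two-sided, gave p = 0.0286, the smallest that 4 against 4 can give. Jun was called under each of the 17 other settings tried, with log2 fold changes of 0.34 to 0.39. Its change lay at percentile 98.2 of the changes of all tested genes.

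Junb, which is known to hold back several actions of Jun, did not pass. Controls 1 to 4 held 14.0, 18.2, 16.7 and 18.9 FPKM, and the Fto siRNA libraries held 17.01, 19.6, 18.3 and 20.3 FPKM. The groups overlapped, with control replicate 1 the lowest of the 8. The log2 fold change was 0.15 (95% interval -0.04 to 0.34, limma adjusted p = 0.27).

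Jund, the Jun protein that is usually present in quiescent cells, did not pass either. Controls held 17.5, 20.9, 23.4 and 21.5 FPKM and Fto siRNA libraries 20.5, 20.7, 21.7 and 22.4 FPKM. The Fto siRNA libraries all lay inside the range of the controls, whose spread (SD 2.43 FPKM) was larger than theirs (SD 0.867 FPKM). The log2 fold change was 0.04 (95% interval -0.13 to 0.20, limma adjusted p = 0.76), and without control replicate 1, the lowest, it was -0.04.

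Fosl2, which encodes Fra-2, was the most abundant Fos family transcript, and it was lower in every Fto siRNA library than in every control. Its mm9 locus is chromosome 5, 32438845 to 32460212. Controls 1 to 4 held 25.2, 24.9, 23.5 and 23.9 FPKM, and Fto siRNA libraries 1 to 4 held 22.3, 20.6, 22.5 and 19.4 FPKM. The groups did not overlap, but the highest Fto siRNA library and the lowest control lay close together. The mean went from 24.4 ± 0.820 to 21.2 ± 1.47 FPKM (SD, n = 4), a change of -12.9% (on the log2 scale -0.20, SE 0.05, 95% interval -0.31 to -0.08, limma adjusted p = 0.023; exact permutation p = 0.0286). Fosl2 was not called without control replicate 1 (limma adjusted p = 0.060), control replicate 2 (0.066), Fto siRNA replicate 2 (0.061) or Fto siRNA replicate 4 (0.0501), with log2 fold changes of -0.16 to -0.23 over the 8 fits that each left out a library. Its call thus depended on which libraries were used, whereas its direction did not change.

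Fosl1, which encodes Fra-1, a Fos protein without the strong activating domain of Fos, held a smaller level and varied most among the 10. Controls held 5.50, 4.80, 3.95 and 5.27 FPKM and Fto siRNA libraries 5.50, 3.30, 4.50 and 4.85 FPKM. The groups overlapped over nearly their whole range. The log2 fold change was -0.11 (95% interval -0.41 to 0.20, limma adjusted p = 0.64), and it was 0.02 without Fto siRNA replicate 2, the lowest library. The Fosl1 locus overlaps that of Ccdc85b (mean 9.96 FPKM). Strandedness is not given, so how well the deposited values separate the pair is unknown.

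Fos itself, the partner of Jun in the classical AP-1 dimer, was near the floor of the data. Controls held 1.25, 1.62, 1.52 and 1.39 FPKM and Fto siRNA libraries 1.55, 1.90, 1.84 and 1.06 FPKM. Fto siRNA replicate 4 was the lowest of the 8 libraries and Fto siRNA replicate 2 the highest, so the groups overlapped. The log2 fold change was 0.09 (95% interval -0.23 to 0.40, limma adjusted p = 0.72). Fosb, whose truncated product is known from long-lasting stimulation, held 1.39, 1.39, 1.38 and 1.21 FPKM in the controls and 0.974, 1.23, 1.34 and 1.05 FPKM with Fto siRNA. Its groups overlapped through control replicate 4, and the log2 fold change was -0.16 (95% interval -0.39 to 0.06, limma adjusted p = 0.30).

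Egr1, the most abundant EGR factor and a well-known sensor of serum and growth factor signals, was close between the groups. Controls held 16.1, 15.6, 17.9 and 18.03 FPKM and Fto siRNA libraries 16.1, 16.3, 17.4 and 14.8 FPKM. The groups overlapped, with a log2 fold change of -0.06 (95% interval -0.20 to 0.07, limma adjusted p = 0.50). That interval was the narrowest of the factors that did not pass, and it leaves out a change of the size seen for Jun in either direction. Egr2, also called Krox20 and known as an early inducer of adipogenesis, held 1.74, 2.13, 1.92 and 2.18 FPKM in the controls and 1.65, 1.86, 1.93 and 1.31 FPKM with Fto siRNA. Its log2 fold change was -0.19, as large as that of Fosl2, but its interval (-0.44 to 0.05) included 0 (limma adjusted p = 0.25). Egr3, a relative induced by the same signals, held 2.31, 1.68, 1.72 and 2.38 FPKM in the controls and 2.34, 1.74, 1.77 and 1.80 FPKM with Fto siRNA. Its controls fell into a high and a low pair, the groups overlapped, and the log2 fold change was -0.06 (95% interval -0.33 to 0.21, limma adjusted p = 0.78). Of the 3 EGR factors limma called 0 higher and 0 lower, and at an unadjusted p under 0.05 it was also 0 and 0. Of all tested genes 19.3% were called, and 3 genes are too few to set 0 apart from that share. Of the factors that did not pass, leaving out 1 library moved the log2 fold change of Fos between 0.01 and 0.22, of Junb between 0.06 and 0.20, of Fosb between -0.22 and -0.11, of Egr1 between -0.10 and -0.02 and of Egr2 between -0.25 and -0.11, with none of them called.

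**Figure D1:**
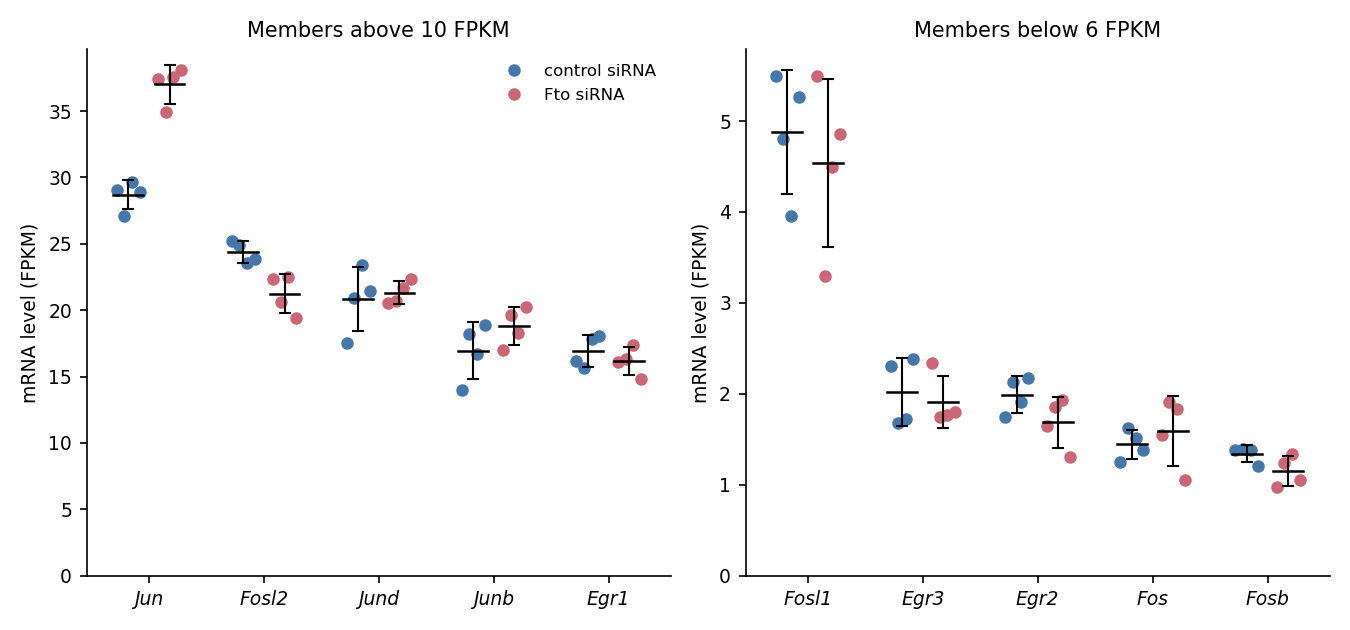
Level of each factor in FPKM (vertical axes, from 0), with 1 point per library, control siRNA beside Fto siRNA; bars are the mean and SD of 4 libraries. Jun stands apart between the groups, from 27.1 to 29.7 FPKM in the controls and 34.9 to 38.1 FPKM with Fto siRNA, Fosl2 stands apart narrowly, and the other 8 overlap.

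**Figure D2:**
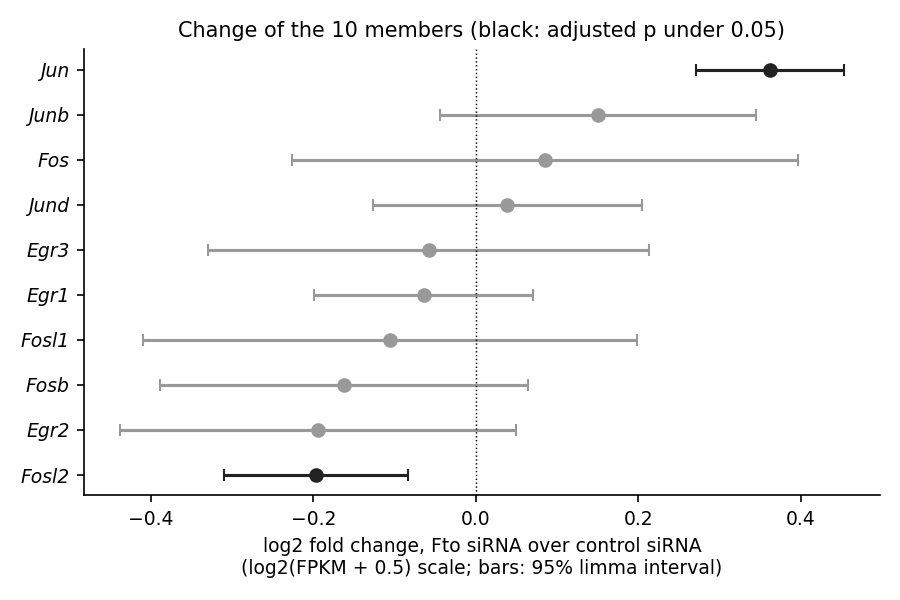
Log2 fold change of each factor, Fto siRNA over control siRNA (horizontal axis, log2(FPKM + 0.5) scale), with its 95% interval from limma; black marks an adjusted p under 0.05. Jun lies at 0.36 and Fosl2 at -0.20, and the intervals of the other 8 include 0.

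The levels of the 10 genes, which FPKM allows to be set side by side per length, fell into an abundant and a scarce set. In the controls the order by mean was Jun, Fosl2, Jund, Junb, Egr1, Fosl1, Egr3, Egr2, Fos and Fosb. Jund overlapped Junb, Junb overlapped Egr1, Egr3 overlapped Egr2 and Fos overlapped Fosb library by library, while the other neighbours did not overlap. With Fto siRNA Jund and Fosl2 changed places, at 21.3 and 21.2 FPKM, and their ranges overlapped, as did those of Fosl2 and Junb and of Egr2 and Fos. Among all tested genes the mean level of Jun lay at percentile 74.9, that of Egr1 at 53.2, that of Fos at 3.57 and that of Fosb at 1.73.

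The summed levels of the Jun and Fos families lay apart between the groups, whereas the shares of Jun and Fosl2 within them overlapped. The summed level of Jun, Junb and Jund was 60.6 to 69.7 FPKM in the controls and 75.0 to 80.8 FPKM with Fto siRNA. The summed level of the 4 Fos genes was 30.38 to 33.4 FPKM in the controls and 26.4 to 30.35 FPKM with Fto siRNA, so these sums nearly touched. Jun transcripts thus outnumbered Fos transcripts per length by 1.82 to 2.30 times in control libraries and by 2.47 to 3.06 times in Fto siRNA libraries. Jun and Fosl2 are the largest parts of these sums, so the family sums and their ratio largely repeat the changes of these genes. The ratio of Jun to Fosl2 was 1.09 to 1.26 in control libraries and 1.67 to 1.96 in Fto siRNA libraries, and since both genes were called in opposite directions it had to differ, so no test is given. Within the Jun family Jun made up 43.3% ± 3.17 in the controls and 48.0% ± 1.52 with Fto siRNA (SD, n = 4). Its share overlapped, at 40.9 to 47.9% and 46.4 to 49.9%. The share of Jund was 31.3% ± 1.89 and 27.6% ± 0.251, without overlap (28.9 to 33.5% and 27.4 to 28.0%), although the level of Jund itself did not pass the test. A share also falls when another gene of the same sum rises, so this is no separate result on Jund. Within the Fos family Fosl2 made up 76.1% ± 0.963 and 74.5% ± 1.25, with overlap (75.2 to 77.4% and 73.6 to 76.2%), and Fos 4.52% ± 0.593 and 5.56% ± 1.30. Egr1 made up 80.8% ± 1.55 and 81.8% ± 1.15 of the EGR sum. The sum over the 10 genes was 114 to 124 FPKM in the controls and 122 to 129 FPKM with Fto siRNA.

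**Figure D3:**
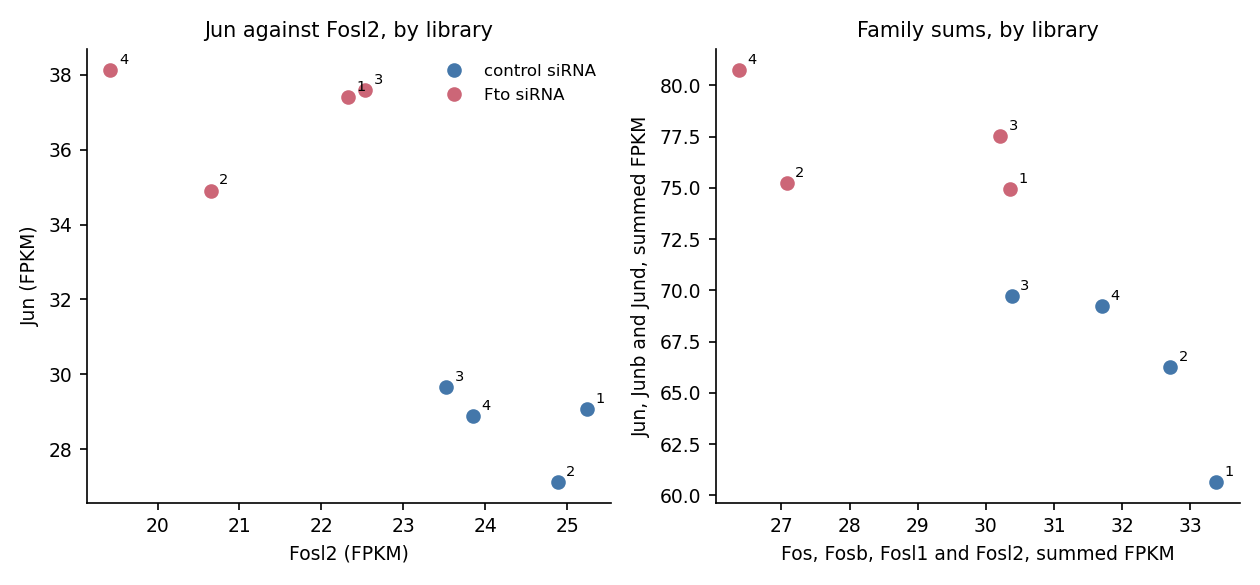
Left, Jun against Fosl2 in FPKM; right, the summed FPKM of the Jun family against that of the Fos family; each point is 1 library, numbered by replicate, and the axes do not start at 0. The Fto siRNA libraries lie at higher Jun and lower Fosl2 than the controls, with Jun family sums of 75.0 to 80.8 FPKM against 60.6 to 69.7.

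The scarce factors rested on few fragments. The width of the deposited intervals gave 43.0 to 75.0 fragments per library for Fos, 40.0 to 66.0 for Egr3, 75.0 to 120 for Fosb, 76.3 to 140 for Fosl1 and 78.0 to 142 for Egr2, against 1790 to 2455 for Jun and 2375 to 3405 for Fosl2. The counting error of 1 library was thus 12.9% of the level for Fos and 13.6% for Egr3 in the controls, but 2.31% for Jun and 1.82% for Fosl2. For Fos, Fosb and Egr2 the SD over libraries was 0.873, 0.688 and 1.11 times the counting error in the controls, and 1.92, 1.35 and 1.62 times with Fto siRNA. For Fosl1 and Egr3 it was 1.53 and 1.36 times in the controls, and 2.11 and 1.04 times with Fto siRNA. The part of counting in the width of their intervals was not tested. The highest of these ratios were those of more abundant factors, 4.08 for Jund and 3.14 for Junb in the controls and 3.46 for Fosl2 with Fto siRNA.

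**Figure D4:**
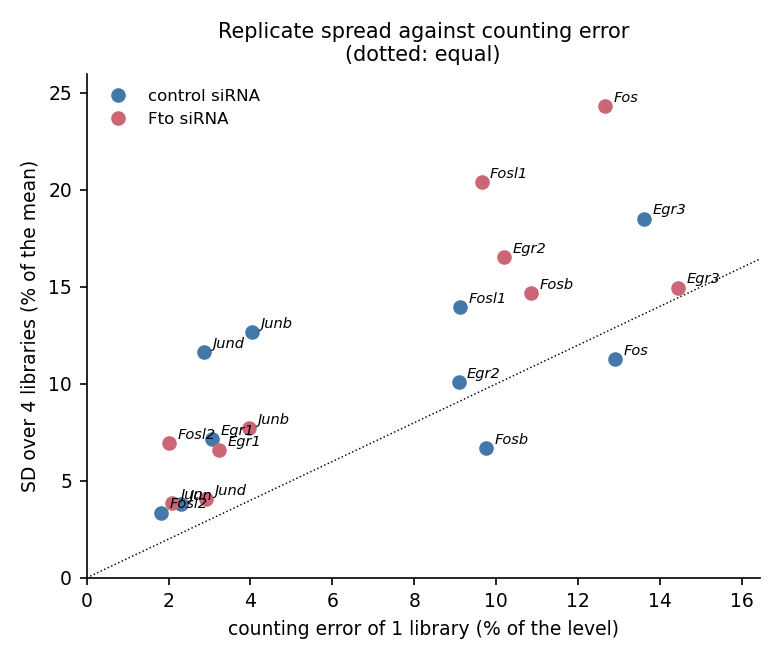
SD over 4 libraries as a percentage of the mean (vertical axis) against the counting error of 1 library as a percentage of the level (horizontal axis), 1 point per factor and group; the dotted line marks equality. The scarce factors lie at counting errors of 9.08 to 14.4%, and Jund and Junb in the controls lie well above the line at 11.7 and 12.7%.

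Words in the 3′ UTRs, which were not used to choose the genes, were read from GENCODE M21 transcripts on GRCm38, taking the longest annotated 3′ UTR of a gene. The AU-rich word TTATTTATT, of the kind that marks short-lived mRNAs, was present once in Fos and once in Fosl2, in none of the other 8, and in 8.34% of 9813 searched genes. The shorter AU-rich word ATTTA was present in all 10 factors and in 71.2% of searched genes. The 3′ UTRs searched ran from 485 bases for Junb to 4653 bases for Fosl2, and a longer one holds more words. The words GACCTTA and ACCTTAA had been picked in an earlier analysis of these data because genes that carry them were lower with Fto siRNA, so their presence supports nothing here. They were in 26.3% of the fallen, 8.33% of the risen and 13.1% of all searched genes. Among the 10 factors only Fos and Fosl2 held one, GACCTTA in both. The sites are shown with the word in capitals.
Fosl2 at chr5:32157541-32157565, plus strand: tccaggcagGACCTTAtgctcagaa
Fos at chr12:85476561-85476585, plus strand: cctagggagGACCTTAcctgttcgt
Fosl2 at chr5:32156872-32156898, plus strand: tttattttaTTATTTATTttaaatgtt
Fos at chr12:85477104-85477130, plus strand: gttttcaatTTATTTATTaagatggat
Fosl2, which fell, and Fos, whose log2 fold change of 0.09 did not pass, thus share TTATTTATT and GACCTTA. The part of any of these words in these levels was not tested.

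Of 12 listed bZIP genes that can pair with or replace AP-1 proteins, 9 were tested, 2 rose and 0 fell (limma; unadjusted p fell under 0.05 for 3 higher and 1 lower), beside 6.97% risen and 12.3% fallen among all tested genes. The number called in either direction was near the 19.3% of all tested genes, but all of these calls were rises. The median log2 fold change was 0.10. Jdp2, which dimerizes with Jun and represses AP-1 sites, held 47.2, 43.0, 57.9 and 47.6 FPKM in the controls and 67.0, 58.2, 60.5 and 68.0 FPKM with Fto siRNA. Its groups were apart, although control replicate 3 reached nearly the lowest Fto siRNA library. The difference was 0.38 on the log2 scale (adjusted p from limma 0.012). Maf, a large Maf protein, rose from a mean of 44.1 ± 2.54 (SD) to 50.7 ± 1.69 FPKM over 4 libraries each, by 0.20 on the log2 scale (limma adjusted p = 0.012). The small Maf gene Mafk stood at -0.22 on that scale and did not pass (limma adjusted p = 0.082), but it was called lower with array weights (-0.28, adjusted p = 0.025). Batf, Batf2 and Batf3 lay below the filter, at 0.114 FPKM or less. Egr4 was listed at 0, and the EGR corepressors Nab1 and Nab2 stood at -0.05 and 0.05 (limma adjusted p = 0.49 and 0.52). Of these 2 tested genes limma called 0 in either direction, also at an unadjusted p under 0.05. With 19.3% of all tested genes called, 2 genes are too few to set 0 apart from that share. The Nab2 locus overlaps that of Stat6.

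Upstream of these genes, serum response factor was lower and most genes of the ERK cascade did not pass the test. Srf, which binds the CArG boxes of Fos and Egr1, held 30.8, 29.3, 27.3 and 30.4 FPKM in the controls and 25.95, 22.3, 25.05 and 23.2 FPKM with Fto siRNA. Its groups did not overlap (log2 fold change -0.28, limma adjusted p = 0.0065), while the Egr1 and Fos levels given above did. Elk3, an ETS partner of Srf, fell by 0.14 (log2 scale, adjusted p = 0.020), and Mkl1, an actin-regulated coactivator, rose by 0.15 (adjusted p = 0.042). Of the 6 genes of this list 1 rose, 2 fell and 3 did not pass (19.3% of all tested genes were called), with a median of -0.09. Elk3 was not called without control replicate 1 (limma adjusted p = 0.0502) or Fto siRNA replicate 2 (0.0556). Mkl1 lost its call when any of 6 libraries was left out (controls 1, 3 and 4, Fto siRNA 1, 2 and 3, adjusted p 0.0691 to 0.102), and its locus overlaps Sgsm3. Elk4 (log2 fold change -0.15, adjusted p = 0.37) was called lower without control replicate 3 (0.0321).

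In the ERK cascade 1 of 12 tested genes rose, 1 fell and 10 did not pass, near the 19.3% called among all tested genes, with a median of -0.01. Mapk3, which encodes ERK1, held 89.1, 97.6, 104 and 91.1 FPKM in the controls and 74.1, 70.4, 71.1 and 70.8 FPKM with Fto siRNA. Every Fto siRNA library was lower than every control (log2 fold change -0.41, limma adjusted p = 4.7e-04). Map2k1 and Araf, whose loci overlap Uchl4 and Syn1, had log2 fold changes of 0.09 and -0.08 and did not pass (limma adjusted p = 0.13 and 0.17). Among 12 kinases of the JNK, p38 and ERK5 branches, limma called 0 higher and 1 lower (0 and 4 at an unadjusted p under 0.05). Of all tested genes 6.97% rose and 12.3% fell, and the median of the 12 kinases was -0.06. The kinase gene called lower was Mapk14, which encodes p38 alpha, at -0.13 (limma adjusted p = 0.018). Map3k1, Map2k6 and Map2k4 stood at -0.31, -0.15 and -0.08 and did not pass (adjusted p = 0.086, 0.10 and 0.12). Map3k1 was called lower with array weights (-0.36, limma adjusted p = 0.040) and without the trend (-0.31, limma adjusted p = 0.0499). The JNK genes Mapk8 and Mapk9, whose kinases phosphorylate Jun, had log2 fold changes of 0.03 each. Protein phosphorylation was not measured.

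Other immediate early genes changed in both directions. Of 28 listed, 25 were tested, 5 rose, 2 fell and 18 did not pass (beside 6.97% risen and 12.3% fallen among all tested genes), with a median of 0.10. At an unadjusted p under 0.05 limma put 10 higher and 4 lower, beside 1425 and 2272 of all 11398 tested genes. The 2 largest rises were of Klf2 and Rhob. Klf2, a Krüppel-like factor, held 3.65, 3.89, 5.28 and 4.28 FPKM in the controls and 10.5, 11.4, 11.4 and 11.6 FPKM with Fto siRNA (log2 fold change 1.31, limma adjusted p = 2.1e-05). Rhob, a small GTPase gene of the early response, rose by 1.03 on the log2 scale (adjusted p = 2.5e-06). Klf10, Klf4 and Myc rose by 0.30, 0.30 and 0.18, beside 0.36 for Jun. Trib1 and Btg2, a pseudokinase and an antiproliferative gene, fell by 0.29 and 0.21 on the log2 scale. Btg2 was not called without control replicate 2 (limma adjusted p = 0.0517). Ier2, Nr4a1 and Zfp36, which serum induces with Fos and Egr1, had log2 fold changes of 0.14, 0.17 and 0.01 and did not pass (limma adjusted p = 0.14, 0.10 and 0.92). The unadjusted limma p was 0.043 for Ier2, whose groups did not overlap, 0.028 for Nr4a1 and 0.85 for Zfp36. Among 8 factors that destroy or protect AU-rich mRNAs limma called 0 higher and 0 lower (0 and 1 at an unadjusted p under 0.05). Of all tested genes 19.3% were called, and 8 genes are too few to set 0 apart from that share. Hnrnpd stood at -0.10 (limma adjusted p = 0.088), Elavl1 at 0.05 (0.32), Cnot1 at 0.09 (0.32) and Zfp36l1 at 0.06 (0.39). The Cnot1 locus overlaps 4930513N10Rik.

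Genes known as AP-1 targets moved both up and down. Of 19 listed, 17 were tested, 4 rose, 7 fell and 6 did not pass, where 6.97% of all tested genes rose and 12.3% fell, with a median of -0.06. Plau, the urokinase gene, went from 7.36, 6.36, 7.42 and 7.60 FPKM in the controls to 4.25, 4.73, 3.69 and 3.66 FPKM with Fto siRNA, which is -0.75 on the log2 scale (limma adjusted p = 3.6e-04). The metallothioneins Mt1 and Mt2 fell by 0.59 and 0.44 on the log2 scale, the matrix protein gene Spp1 by 0.45, the chemokine gene Ccl2 by 0.33, the chromatin protein gene Hmga2 by 0.33 and the stromelysin gene Mmp3 by 0.23. The hyaluronan receptor gene Cd44 rose by 0.37, the gelatinase gene Mmp9 by 0.32, cyclin D1 (Ccnd1) by 0.17 and the protease inhibitor gene Timp1 by 0.15. Timp1 lost its call when any of 6 libraries was left out (controls 1, 2 and 4, Fto siRNA 1, 3 and 4, adjusted p 0.0659 to 0.0883), and its locus overlaps Syn1. Il6 and Lif lay below the filter, at 0.473 and 0.213 FPKM. Of 12 genes known as EGR targets 2 rose, 2 fell and 8 did not pass (19.3% of all tested genes were called), with a median of 0.02. Vegfa and Cdkn1a rose by 0.49 and 0.39, and the tissue factor gene F3 fell by 0.26 on the log2 scale. The lists hold genes with many other regulators, and they were chosen with earlier results of these data known.

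**Figure D5:**
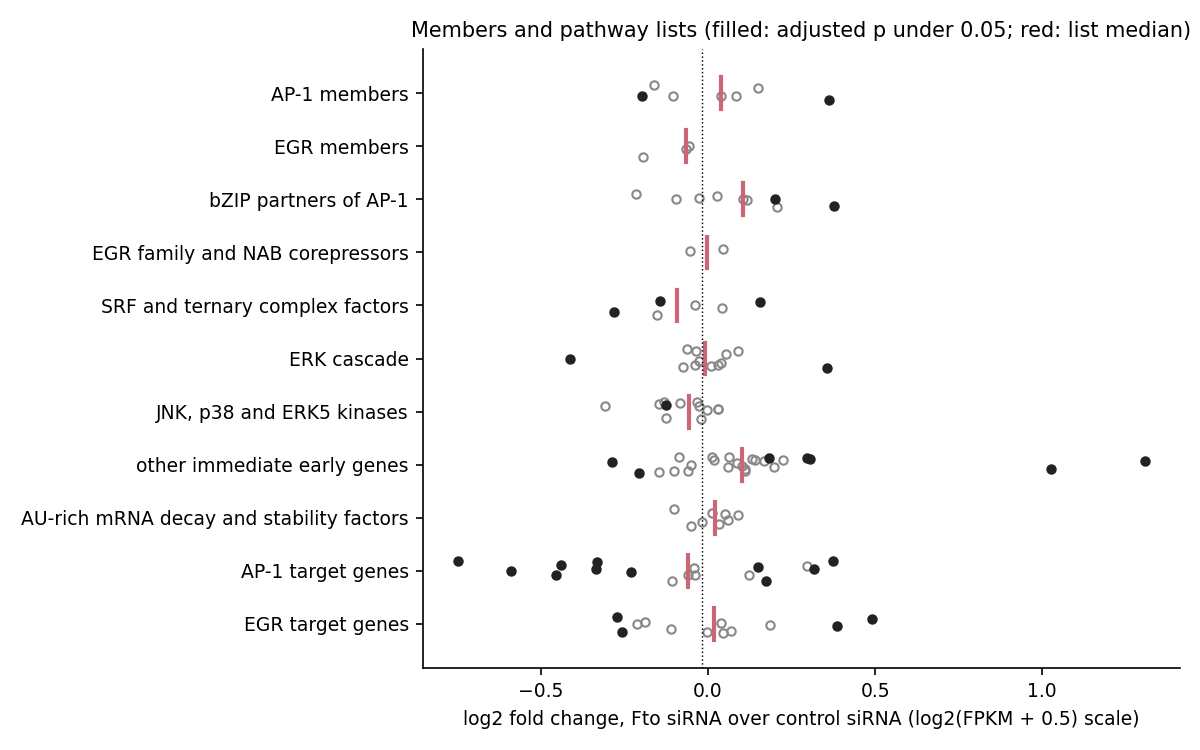
Log2 fold change of each tested gene (horizontal axis, log2(FPKM + 0.5) scale) in the AP-1 and EGR families and 9 lists of the pathway; filled points have an adjusted p under 0.05, red bars are list medians and the dotted line is the median of all tested genes, -0.02. Jun at 0.36 and Fosl2 at -0.20 are the filled points of the top line, and Klf2 at 1.31 and Rhob at 1.03 lie furthest to the right.

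Fosl1 had the largest SD of log2 values over the 8 libraries, 0.23, and the genes whose pattern over the 8 libraries was nearest to it were Bhlhe41, Slc9a9, Cyb5d1 and Pole2. After centring, their root mean square differences from Fosl1 were 0.08, 0.08, 0.10 and 0.11 on the log2 scale, where the median over tested genes was 0.23. The libraries of both groups entered this choice, so a group difference near that of Fosl1 was built into it. Their limma adjusted p of 0.31, 0.78, 0.75 and 0.94 are thus no separate result.

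For the series as a whole, Fto itself held 54.6, 55.4, 56.2 and 55.2 FPKM in the controls and 13.8, 10.7, 12.3 and 11.6 FPKM with Fto siRNA (log2 fold change -2.15, limma adjusted p = 7.3e-08). Every library labelled Fto siRNA was thus lower than every control. Interval widths gave a depth of 18.9 to 24.4 M fragments per library, and the libraries held 11351 to 11397 genes at 1 FPKM or more. Limma called 794 genes higher and 1401 lower, and the groups did not overlap for 24.2% of tested genes. Median-ratio scaling gave 1086 higher and 1218 lower and quantile normalization 1086 and 1207, which moved risen genes from 36.2% to 47.1% and 47.4% of calls. Of 8 fibroblast and preadipocyte markers 7 had a mean of at least 1 FPKM and Cd34 did not (0.658 FPKM in the controls). The macrophage list summed to 15.8 to 21.8 FPKM in control and 13.02 to 14.4 FPKM in Fto siRNA libraries, mostly from Lyz2 (means of 16.7 and 11.6 FPKM). The means of Cd68 (0.974 and 1.202 FPKM) and Csf1r (0.672 and 0.933 FPKM) were instead higher with Fto siRNA, while Emr1 was listed at 0 and Ptprc and Itgam lay under 0.012 FPKM. The epithelial list summed to 0.740 to 1.29 and 0 to 0.0420 FPKM, all but a trace from Krt14, with Epcam and Krt18 at 0. The sums of the adipocyte list overlapped, at 51.6 to 83.2 and 54.2 to 65.9 FPKM, mostly from Fabp4 (means of 57.4 and 52.9 FPKM). Behind that sum the means of Adipoq (4.59 and 2.32 FPKM) and Cidec (1.46 and 0.755 FPKM) were lower with Fto siRNA. Those of Plin1, Retn and Cfd were also lower, and Lep lay near 0. The highest of the 8 libraries held 9.19 FPKM of Adipoq and 3.26 FPKM of Cidec, so 1 library weighs heavily in a group mean. Whether the groups overlapped library by library for these genes is not given here. No test of these markers is given here. The part of these genes in the results above was not tested, and in such bulk samples fewer expressing cells and less RNA per cell cannot be told apart.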

How the data were processed

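Per the file headers, the authors deposited FPKM with interval bounds and a status, in 1 table for each of 8 libraries. The software named is TopHat2 2.0.11 and Cufflinks 2.2.1, with the mm9 build, per the submitters' processing notes. Annotation and strandedness: not given in the sources used here. FPKM shares reads of overlapping genes by a model and holds no counts, so no count test was run. The authors' compiled tables of the same libraries were not used.

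Groups were compared by limma 3.58.1 (R 4.3.3) on log2(FPKM + 0.5) with a trend in the prior variance, for 11398 genes with a mean of at least 1 FPKM, with two-sided p-values adjusted by Benjamini-Hochberg across these genes. The fit was tested on simulated data. Fragments behind a value are (2 × FPKM / (upper bound - FPKM)) squared, which came within 0.02 of a whole number for 73.0% of values under 30. They cover counting error only. Sequence searches used Python 3.11.15. The members, the lists and the tests were chosen with earlier results of these data known. The rule for named genes took all 10 members, Fto, up to 4 members of each list with the lowest p and any list member called. It also took the 4 genes nearest in pattern to the member with the largest SD of log2(FPKM + 0.5). A few other genes were named after their values were seen: Mapk8, Mapk9, Ier2, Nr4a1, Zfp36, and those below the filter. Some genes that the rule takes are not reported here.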

Additional observations from a re-analysis of the deposited data

Results flagged for a closer look

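In groups of 4 libraries, 1 library stood far from the other 3 in 7 of 110 groups examined, and chance flags about 1 in 20. Among the factors these were Fosb in control replicate 4, the lowest of its group at 1.21 FPKM, and Egr3 in Fto siRNA replicate 1, the highest at 2.34 FPKM. Both are scarce transcripts that did not pass the test. Among the list genes they were Mapk14 in control replicate 3 (48.8 FPKM), Klf2 in Fto siRNA replicate 1 (10.5 FPKM), Rhob in Fto siRNA replicate 4 (54.7 FPKM), F3 in control replicate 3 (287 FPKM) and Cdkn1a in control replicate 1 (98.95 FPKM).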

How the results depend on the processing

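Jun was called higher in all 17 other settings (pseudocounts, filters, scalings, array weights, no trend, the replicate block and 8 fits that each left out a library), and Fosl2 kept its direction in all 17 and its call in 13. Leaving out 1 library gave 1 risen factor each time and 0 to 1 fallen factors. Over those fits the log2 fold change of Fosl2 was -0.23 to -0.16, that of Jund -0.039 to 0.10, that of Fosl1 -0.20 to 0.024 and that of Egr3 -0.14 to 0.0097. The signs of the last 3 changed without control replicate 1 (Jund, -0.039), Fto siRNA replicate 2 (Fosl1, 0.024) and control replicate 4 (Egr3, 0.0097), none of them past the threshold, and the cause was not tested. A filter of 5 FPKM leaves out Fos, Fosb, Fosl1, Egr2 and Egr3. Libraries with the same replicate number did not deviate together (correlations of -0.19 to 0.07), and a fit with the replicate block called 628 genes higher and 1133 lower and left the calls of the 10 factors as they were, while Elk3 (adjusted p = 0.0506), Mapk14 (0.0519), Mkl1 (0.0574) and Timp1 (0.0721) were not called. Over all 17 settings Mkl1 was called in 7 and Timp1 in 8. Fos, Fosb, Fosl1, Egr2 and Egr3 rest on few fragments per library, with a counting error of 9.08 to 14.4% of the level.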
